A study of Mus musculus with 10 samples.

Results

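Bile acid synthesis and transport was followed through 10 genes in mouse liver: Cyp7a1, Cyp8b1, Cyp27a1, Cyp7b1, Hsd3b7, Akr1d1, Baat, Slc27a5, Abcb11 and Slc10a1. Every probe set that the platform annotation gives to exactly 1 of these symbols was taken, which made 17 probe sets of the 45037 tested (10 genes of 18193 named). A probe set is the group of short array probes that reads a transcript or several related transcripts, and its value here is a log2 expression level. The livers came from lactating QSi5 mice, an inbred strain, killed at peak lactation. The HGI group (5 mice) ate a high glycaemic index diet holding 51.4% glucose (gross energy 15.6 MJ/kg), and its samples are labelled as being in positive energy balance. The LGI group (5 mice) ate a low glycaemic index diet holding 51.4% high-amylose starch (gross energy 16.3 MJ/kg), and its samples are labelled as being in negative energy balance. Both groups were on their diet from pregnancy onwards, so all 10 mice were lactating and no other stage was compared. Diet and energy balance cannot be told apart, because each label goes with 1 diet.

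Hepatocytes turn cholesterol into bile acids by a classical route, which Cyp7a1 opens, and by an alternative route, which Cyp27a1 and Cyp7b1 open. The new bile acids are joined to taurine or glycine, pumped into the bile canaliculus, and taken up again from portal blood after they return from the gut. Bile acids restrain their own synthesis through the nuclear receptor FXR (Nr1h4), which induces the repressor SHP (Nr0b2) and, in the ileum, the hormone FGF15. HGI was compared with LGI to ask which of these transcripts the diets set apart in lactating liver.

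None of the bile acid genes passed the threshold between the diets. The widest spread among mice was that of Cyp7a1 within the LGI group, where 1 mouse, LGI 4, lay far below the others. Of the 17 probe sets 0 were past a limma adjusted p of 0.05, against 0.0644% of all probe sets (29; 0.0377% higher in HGI and 0.0266% lower), and the smallest adjusted p was 0.377, at Abcb11, the bile salt export pump. At an unadjusted p under 0.05 there were 5 probe sets, of Abcb11, Baat, Slc27a5 and Cyp7b1, all with lower HGI means, where 7.54% of all probe sets reached that level in either direction and 4.78% were lower in HGI. Among probe sets with a mean of at least 6 log2, 9.25% were lower in HGI at that level. That count of 5 lower was 1 without LGI 3, 2 without HGI 1 or without LGI 1, 3 without HGI 5 or without LGI 5, and 4 to 6 without any other single array. Beside them 1 probe set was higher in HGI at that level without HGI 1, HGI 3, LGI 1, LGI 2 or LGI 3. The median difference over the 17 probe sets, HGI minus LGI on the log2 scale, was -0.02, and that over all probe sets was also -0.02. Without LGI 4 the median over the 17 was -0.19, with 15 values below 0 and 2 above (9 and 8 with all mice). The median over all probe sets stayed at -0.02, and that over probe sets with a mean of at least 6 log2 at -0.04. LGI 4 was the lowest LGI array at 8 of the bile acid genes, read at each gene's brightest probe set. Leaving it out must lower HGI minus LGI at those genes, so the shift follows in part from the choice of array. The share of all probe sets below 0 without LGI 4 was not counted. The diets overlapped at all 17, where 1.67% of all probe sets separated them. The interval of a difference given below is limma's 95% interval.

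The arrays were alike in their overall levels, with medians from 3.91 to 3.97 log2 and pairwise correlations from 0.986 to 0.996. LGI 4 stood apart most: among the 11472 probe sets with a mean of at least 6 log2, 180 lay at least 1 log2 unit below the mean of the other 4 LGI arrays and 208 at least 1 unit above it. In the other 9 arrays the same counts ran from 12 to 71 below and from 7 to 54 above. HGI 1 had the narrowest spread of values (SD 2.16 log2) and was the lowest HGI array at 7 of the 10 genes, read at each gene's brightest probe set, and at 67.7% of the 11472 probe sets. Some named differences at a gene's brightest probe set turn direction, or move by over 1.5 times, when either array is left out. In such cases that value is given as well. Of 8 hepatocyte markers 6 were measured, and their mean level was 14.16 to 14.23 log2 in HGI and 14.11 to 14.17 log2 in LGI. In bulk liver, fewer cells of a type and less RNA per cell cannot be told apart.

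**Figure D1:**
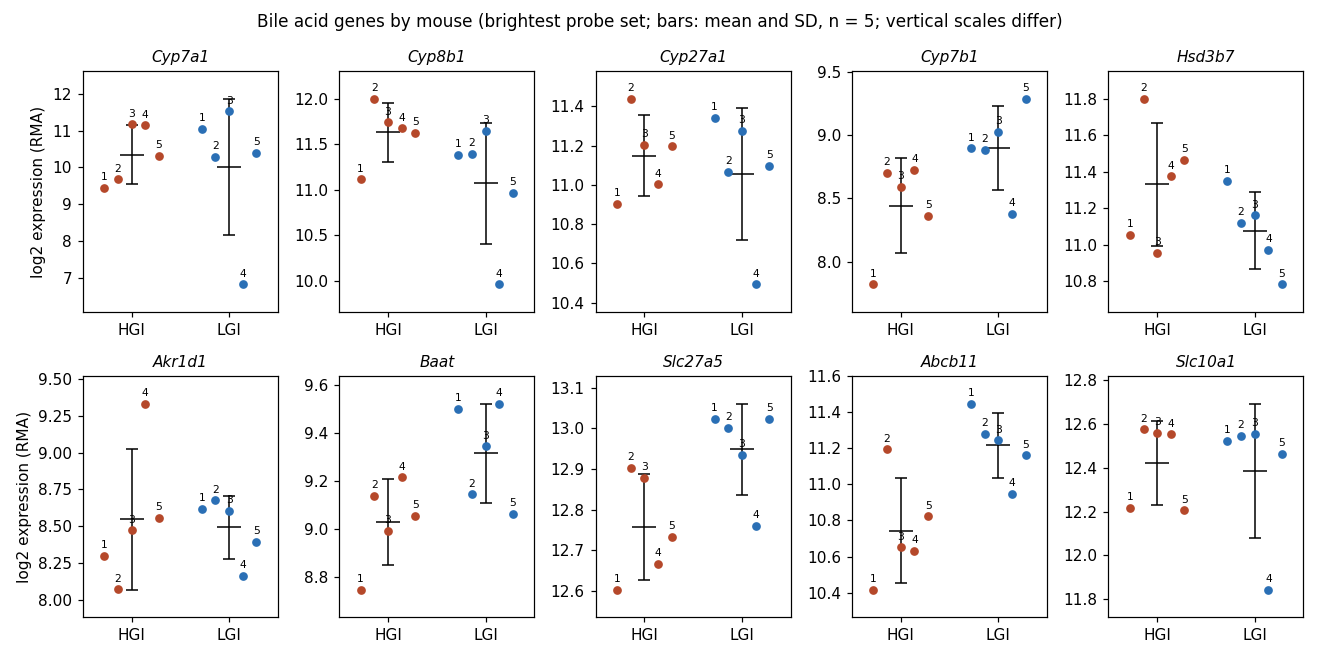
Log2 expression of the 10 bile acid genes in each mouse, at the brightest probe set of each gene. Points are single mice numbered 1 to 5 within each diet, black bars are the mean and SD (n = 5), and vertical scales differ between panels. LGI 4 lies at 6.83 for Cyp7a1, below every other mouse, and 4 of the 5 HGI mice lie below the lowest LGI mouse for Abcb11.

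Cyp7a1, the rate-limiting enzyme of the classical route, varied far more among LGI mice than between the diets. Much of this came from 1 mouse, LGI 4, without which the LGI SD of Cyp7a1 at its brighter probe set was 0.58 (0.80 in HGI). At its brighter probe set (1438743_at) the HGI mice 1 to 5 stood at 9.44, 9.68, 11.17, 11.14 and 10.31 log2, and the LGI mice 1 to 5 at 11.04, 10.29, 11.53, 6.83 and 10.39. A single mouse, LGI 4, lay below all the others, and HGI 1 and HGI 2 lay below the other 4 LGI mice. The dimmer probe set (1422100_at) read 6.93, 7.63, 8.48, 8.43 and 7.44 in the HGI mice and 8.64, 7.34, 8.90, 4.02 and 6.98 in the LGI mice, with LGI 4 again lowest. The means at the brighter one were 10.35 ± 0.80 in HGI and 10.02 ± 1.85 in LGI (SD, n = 5 each), a difference of 0.33 with an interval of -1.19 to 1.85 (adjusted p = 0.958). Without LGI 4 the direction turned, to -0.46 (interval -1.25 to 0.33, adjusted p = 0.838), and at the dimmer probe set 0.60 became -0.19. Without HGI 1 the difference at the brighter probe set was 0.56. With all 10 mice the interval holds Cyp7a1 differences of more than 1 log2 unit in either direction.

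The low value of LGI 4 was the farthest of its kind on the array. Its distance from the mean of the other 4 LGI mice (10.81 ± 0.58, SD, n = 4) was -3.98 log2 units, or 15.8-fold lower, and no other probe set with a mean of at least 6 log2 lay as far below in that mouse. Other genes of bile acid synthesis and uptake were lowest in the same mouse: in all, LGI 4 was the lowest LGI array at 7 of the other 9 genes, the exceptions being Hsd3b7 and Baat. Over the 11472 probe sets it was the lowest LGI array at 33.3%. The same distance was -1.39 log2 units at Cyp8b1, -0.70 at Cyp27a1, -0.68 at Slc10a1 and -0.65 at Cyp7b1. Among probe sets with a mean of at least 6 log2, Cyp8b1 was one of the 59 lowest in this mouse by that measure, and Cyp27a1 one of the 414 lowest. Akr1d1, Abcb11 and Slc27a5 were less far out, at places 1174, 1610 and 2462 of 11472. Hepatocyte markers were at 14.14 log2 in LGI 4, inside the range of the other LGI mice, while the Kupffer cell markers (7 of 7 measured) were at 7.90, the highest LGI value (7.41 to 8.31 in HGI, 7.13 to 7.90 in LGI). The Gapdh 3′ minus 5′ difference, a sign of RNA quality, was 0.87 in LGI 4, inside the range of the HGI mice (0.29 to 0.99) and above the 0.33 to 0.66 of the other LGI mice. The same difference for Actb was 2.27 in LGI 4, the highest of the 10 arrays (1.25 to 2.00 in HGI and 1.30 to 2.11 in the other LGI mice). The part of these measures in the low Cyp7a1 value was not tested.

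Cyp8b1, the sterol 12-alpha-hydroxylase that sets the share of cholic acid, had the largest positive difference among the genes at their brightest probe sets. The HGI mice stood at 11.12, 12.002, 11.74, 11.68 and 11.62 log2, and the LGI mice at 11.38, 11.40, 11.65, 9.96 and 10.97. Of the HGI mice 3, all but HGI 1 and HGI 5, lay above every LGI mouse, and LGI 4 and LGI 5 lay below every HGI mouse. The means were 11.63 ± 0.32 in HGI and 11.07 ± 0.67 in LGI (SD, n = 5 each), a difference of 0.56 with an interval of -0.01 to 1.13 (adjusted p = 0.672). It was 0.28 without LGI 4 (interval -0.08 to 0.65, adjusted p = 0.754) and 0.69 without HGI 1.

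The promoter of Cyp8b1 is shown because it holds overlapping motifs for 2 of the activators measured below, HNF4A and LRH-1 (Nr5a2). The 250 bases before the start of the gene (RefSeq, GRCm38.p6, chr9:121916306-121916555, minus strand) read as follows, with both motifs in capitals.
Cyp8b1: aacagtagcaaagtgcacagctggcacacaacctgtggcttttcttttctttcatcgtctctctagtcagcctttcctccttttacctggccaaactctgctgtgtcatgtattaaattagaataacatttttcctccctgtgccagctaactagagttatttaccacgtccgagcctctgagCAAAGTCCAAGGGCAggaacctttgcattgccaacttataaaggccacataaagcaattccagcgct
The HNF4 motif searched was CAAAGTCCA, found from base 67 to base 59 before the start, and the LRH-1 motif was CAAGGNCA, found from base 60 to base 53, so the pair share 2 bases. Searched on both strands, the first is in 0.384% and the second in 5.53% of the 32851 RefSeq promoter windows of that length. A match describes the letters and not binding.

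Cyp7a1 and Cyp8b1 were both lowest in LGI 4 among the LGI mice and in HGI 1 among the HGI mice. With each diet's mean removed, the Pearson correlation over the 10 mice was 0.86 (permutation p = 0.00530, 0.0159 adjusted over the 3 relations tested) and Spearman's rho was 0.60 (permutation p = 0.0726, adjusted 0.179). Without LGI 4 it was 0.46 (exact permutation p = 0.228, n = 9). Without the 2 mice farthest from the median of Cyp7a1, HGI 1 and LGI 4, it was 0.13 (exact permutation p = 0.760, n = 8). Their removal also narrows the range of Cyp7a1, so the drop cannot tell what the relation rests on. Cyp7a1 with Nr0b2, its repressor SHP, gave 0.40 (rho 0.47, permutation p = 0.258 and 0.179, adjusted 0.258 and 0.179), and 0.27 without the same 2 mice (exact permutation p = 0.506, n = 8). Slc10a1 with Abcb11, the uptake and export pumps, gave 0.57 (rho 0.47, permutation p = 0.1003 and 0.177, adjusted 0.150 and 0.179), and 0.63 without HGI 5 and LGI 4 (exact permutation p = 0.129, n = 8) but 0.09 without HGI 1 and LGI 4 (exact permutation p = 0.826, n = 8). No correlation was computed within a single diet, which has 5 mice.

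**Figure D2:**
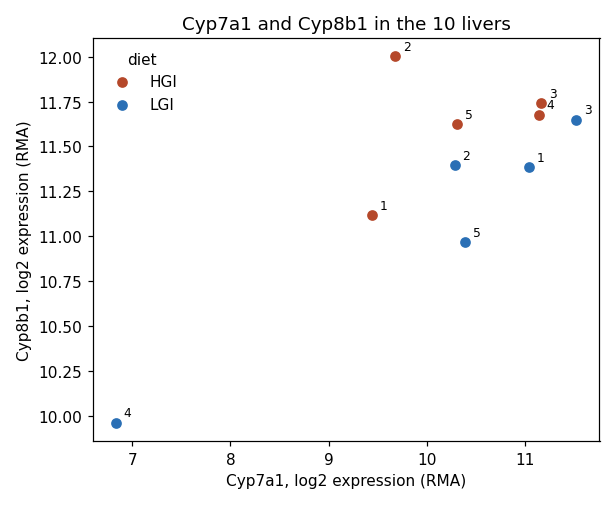
Log2 expression of Cyp7a1 (horizontal axis) and Cyp8b1 (vertical axis) in the 10 livers, 1 point per mouse, numbered within each diet. LGI 4, at 6.83 and 9.96, lies apart from the other 9 mice.

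Hsd3b7 and Akr1d1, enzymes of later synthesis steps, did not pass either. Hsd3b7, the C27 3-beta-hydroxysteroid dehydrogenase that acts after Cyp7a1, stood at 11.06, 11.80, 10.96, 11.38 and 11.47 log2 in the HGI mice and at 11.35, 11.12, 11.16, 10.97 and 10.78 in the LGI mice. HGI 2 was the highest mouse and LGI 5 the lowest, and the difference of 0.25 (interval -0.08 to 0.58, adjusted p = 0.761) was 0.14 without HGI 2. Akr1d1, the 5-beta-reductase that gives the sterol ring its bent form, stood at 0.05 at its brighter probe set and at -0.13 at the other (adjusted p = 0.9747 and 0.943). Its HGI mice ranged from 8.07 to 9.33 at the brighter one, with the highest value in HGI 4, without which the difference was -0.14, and it was 0.12 without HGI 1 and -0.03 without LGI 4. The other probe set stood at -0.04 without HGI 1 and at -0.32 without LGI 4.

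Of the alternative route, Cyp7b1 stood lower in HGI without passing, and Cyp27a1 hardly differed. Cyp7b1, the oxysterol 7-alpha-hydroxylase, read 7.82, 8.70, 8.59, 8.72 and 8.36 log2 in the HGI mice at its brightest probe set (1421075_s_at), and 8.90, 8.88, 9.03, 8.38 and 9.29 in the LGI mice. HGI 1 was the lowest mouse and LGI 4 the lowest of its diet. The diets overlapped only through LGI 4, the other 4 LGI mice being above every HGI mouse. How many of all probe sets separate the diets once LGI 4 is set aside was not counted. The difference was -0.45 (interval -0.85 to -0.05, adjusted p = 0.590), -0.30 without HGI 1 and -0.58 without LGI 4. A second Cyp7b1 probe set gave -0.36 (adjusted p = 0.704), and -0.20 without HGI 1. Cyp27a1, the mitochondrial sterol 27-hydroxylase, averaged 11.15 ± 0.21 in HGI and 11.06 ± 0.33 in LGI (SD, n = 5 each; difference 0.09, adjusted p = 0.941), and stood at 0.16 without HGI 1 and at -0.05 without LGI 4. The third Cyp7b1 probe set and the second of Cyp27a1 had means between 2.18 and 2.56, below the median of every array, and their differences of -0.12 and -0.02 carry little information.

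Both conjugating enzymes stood slightly lower in HGI. Slc27a5, the bile acid CoA ligase that activates bile acids, read 12.60, 12.90, 12.88, 12.67 and 12.73 log2 in the HGI mice and 13.02, 13.00, 12.94, 12.76 and 13.02 in the LGI mice. As with Cyp7b1, the 4 LGI mice other than LGI 4 lay above every HGI mouse, a pattern whose share over all probe sets was not counted. The difference of -0.19 (interval -0.38 to -0.002, adjusted p = 0.657) was small beside those of Abcb11 and Cyp7b1. Baat, which joins the activated bile acid to taurine or glycine, gave -0.28 at its brighter probe set (interval -0.53 to -0.04, adjusted p = 0.580) and -0.21 at the other (interval -0.39 to -0.03, adjusted p = 0.566). The brighter one read 8.75, 9.14, 8.99, 9.22 and 9.05 in the HGI mice and 9.50, 9.14, 9.34, 9.52 and 9.06 in the LGI mice, and here LGI 4 was the highest of its diet.

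Among the transporters, Abcb11 had the smallest p of the 10 genes, while Slc10a1 hardly differed. Abcb11 pumps bile salts across the canalicular membrane into bile. It stood at 10.42, 11.19, 10.65, 10.63 and 10.82 log2 in the HGI mice and at 11.45, 11.28, 11.24, 10.95 and 11.16 in the LGI mice. Only HGI 2 lay within the range of the LGI mice, and the other 4 HGI mice lay below all of them. The means were 10.74 ± 0.29 in HGI and 11.22 ± 0.18 in LGI (SD, n = 5 each), a 1.39-fold lower level in HGI (difference -0.47 ± 0.14, SE; interval -0.76 to -0.18; unadjusted p = 0.00398, adjusted p = 0.377). With single arrays left out it ran from -0.59 (without HGI 2) to -0.39 (without HGI 1), with adjusted p-values from 0.129 to 0.654.

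The promoter of Abcb11 is shown because bile acids act on this gene through FXR. It holds an inverted repeat close to the known FXR motif, in capitals in the 250 bases before the start (RefSeq, GRCm38.p6, chr2:69342617-69342866, minus strand).
Abcb11: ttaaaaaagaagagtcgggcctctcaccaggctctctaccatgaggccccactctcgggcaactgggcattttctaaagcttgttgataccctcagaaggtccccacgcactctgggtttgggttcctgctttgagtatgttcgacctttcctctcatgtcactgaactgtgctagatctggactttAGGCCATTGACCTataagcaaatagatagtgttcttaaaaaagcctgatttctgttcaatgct
The full repeat, AGGTCA and TGACCT with 1 free base between them, did not match. The form with a further free base, AGGNCA and TGACCT spaced the same way, matched from base 63 to base 51 before the start and is found in 0.0335% of the 32851 promoter windows on either strand, against 0.00609% for the full repeat. That form was set after the sequence had been seen. Its TGACCT is also a match to the single element AGGTCA on the opposite strand, which 14.0% of the windows hold. Of the 10 genes, 6 had a promoter in the table, and the HNF4, LRH-1 and FXR motifs were found in no other of these 6.

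Slc10a1, the sodium-dependent importer NTCP of the sinusoidal membrane, read 12.22, 12.58, 12.56, 12.55 and 12.21 log2 in the HGI mice and 12.52, 12.55, 12.56, 11.84 and 12.47 in the LGI mice. The other 4 LGI mice lay close together (12.52 ± 0.04, SD, n = 4), and LGI 4 lay below every other mouse. The difference was 0.04 (interval -0.27 to 0.34, adjusted p = 0.978) and -0.10 without LGI 4 (interval -0.32 to 0.12). Without HGI 1 it was 0.09. The second Slc10a1 probe set gave 0.13, and -0.09 without LGI 4.

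**Figure D3:**
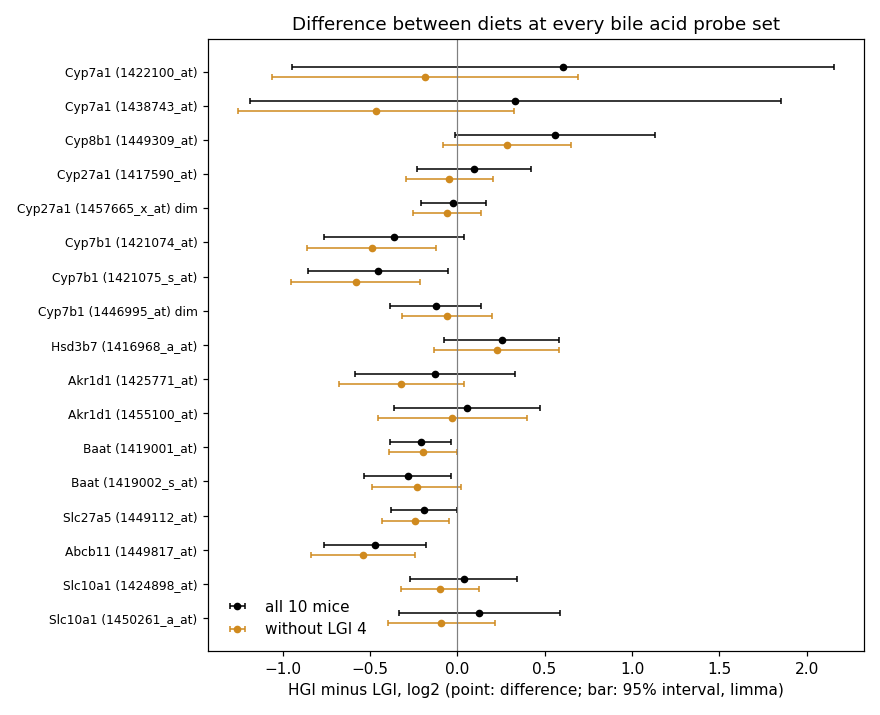
Difference between the diets (HGI minus LGI, log2) at all 17 bile acid probe sets, with limma's 95% interval, for all 10 mice (black) and without LGI 4 (orange). The Cyp7a1 difference turns from 0.33 to -0.46 at its brighter probe set without LGI 4, while that of Abcb11 goes from -0.47 to -0.54; "dim" marks probe sets below the median of every array.

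Beyond the 10 genes, 49 other genes of bile acid handling were listed in 5 groups, and 46 had a probe set, each read at its brightest one. Of these 46, 0 passed in limma, 32 had a value below 0 and 14 above, and the median was -0.13 against -0.02 over all probe sets tested. Values below 0 were found at 25150 of all 45037 probe sets, and at 6886 of the 11472 with a mean of at least 6 log2. The median of these 11472 was -0.04, and 0.02 without HGI 1. At an unadjusted p under 0.05 there were 11 lower in HGI and 1 higher, where 4.78% of all probe sets were lower and 2.76% higher at that level. Among probe sets with a mean of at least 6 log2, 9.25% were lower at that level and 2.47% were lower without overlap. The diets did not overlap at 5 genes, Abcc3, Abcc4, Slc51b, Abcg2 and Fgf15, each lower in HGI, where 1.2% of all probe sets were lower without overlap. Fgf15 is an ileal hormone, and its probe set was below the median of every array. The count of 11 lower ran from 8 (without HGI 1, HGI 5 or LGI 5) to 15 (without HGI 3) with single arrays left out; without HGI 1 there were also 3 higher, and without HGI 1 and LGI 4 together 10 lower and 5 higher.

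Abcc3 and Abcc4, exporters of the sinusoidal membrane, had the differences farthest from 0 among the bile acid genes. Abcc3 (MRP3) carries bile acid conjugates from the hepatocyte back into blood. It stood at 6.71, 8.88, 8.82, 7.57 and 7.13 log2 in the HGI mice and at 9.65, 9.37, 8.94, 9.57 and 9.24 in the LGI mice. The HGI mice were spread widely, and the highest of them lay just under the lowest LGI mouse. The means were 7.82 ± 0.98 in HGI and 9.35 ± 0.28 in LGI (SD, n = 5 each), 2.90-fold lower in HGI (adjusted p = 0.232), with differences of -1.80 to -1.26 when single arrays were left out.

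Abcc4 (MRP4), a further sinusoidal exporter, stood at 4.39, 4.30, 5.52, 4.38 and 4.91 log2 in the HGI mice and at 5.67, 5.98, 5.63, 6.01 and 6.55 in the LGI mice. HGI 3 was the HGI mouse nearest to the LGI range. The means were 4.70 ± 0.52 in HGI and 5.97 ± 0.37 in LGI (SD, n = 5 each), 2.41-fold lower in HGI. With all arrays it did not pass (adjusted p = 0.0810), and without HGI 3 it did (-1.47, adjusted p = 0.0208). Slc51b, the beta subunit of the organic solute transporter OST, averaged 5.25 ± 0.10 in HGI and 5.68 ± 0.23 in LGI (SD, n = 5 each; difference -0.43, adjusted p = 0.272). The importers of this membrane did not share a direction: Slco1a4 stood at -0.36 and Slco1b2 at -0.12, and Slco1a1 at 0.57 (adjusted p = 0.576, 0.821 and 0.562). Slco1a1 stood at 0.32 without LGI 4, and Slco1b2 at -0.06 without HGI 1.

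At the canalicular membrane 6 of 7 genes had values below 0, as had 6886 of the 11472 probe sets with a mean of at least 6 log2. Abcg2, the exporter BCRP, read 7.20, 7.55, 7.63, 7.55 and 7.26 log2 in the HGI mice and 8.002, 7.83, 7.99, 8.25 and 7.82 in the LGI mice. Every HGI mouse lay below every LGI mouse (difference -0.54 ± 0.11, SE; adjusted p = 0.137). Abcg5, which with Abcg8 exports sterols into bile, stood at -0.73 (adjusted p = 0.459), and at -0.54 without HGI 1. Abcb1a stood at -0.38 (adjusted p = 0.713) and at -0.22 without HGI 1. Abcb4, the phosphatidylcholine floppase, and Abcc2 (MRP2) stood at -0.25 and -0.18 (adjusted p = 0.756 and 0.821), and without HGI 1 both stood at -0.09.

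Of the 13 other enzymes, 0 passed with all arrays, 9 had values below 0 and 4 above. Among the 11472 probe sets with a mean of at least 6 log2, 6886 were below 0. Cyp2a12, which in mice hydroxylates secondary bile acids again at position 7-alpha, read 9.81, 10.42, 10.10, 10.12 and 10.06 log2 in the HGI mice and 10.82, 10.79, 10.68, 9.87 and 10.78 in the LGI mice. LGI 4 again lay apart, inside the HGI range, while the other 4 LGI mice lay above all HGI mice. The share of all probe sets with that pattern was not counted. The difference was -0.49 (adjusted p = 0.509), and without LGI 4 it was -0.67 and passed (adjusted p = 0.0496). Acot8, a peroxisomal thioesterase, stood at -0.40 and Sult2a8, a bile acid sulfotransferase of mouse liver, at -0.41 (adjusted p = 0.520 and 0.638). Cyp2c70, which makes the muricholic acids of mice, had a difference of 0.12 (adjusted p = 0.871), which was 0.03 without LGI 4.

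Of the 10 measured genes of sensing and feedback 2, Mafg and Nr1i2, had an unadjusted p under 0.05. Nr1h4 (FXR) averaged 8.34 ± 0.29 in HGI and 8.63 ± 0.19 in LGI (SD, n = 5 each; difference -0.29, adjusted p = 0.671), and stood at -0.19 without HGI 1. Nr0b2 (SHP) stood at 0.27 (interval -0.29 to 0.82, adjusted p = 0.883), at 0.11 without HGI 3 and at 0.08 without LGI 2. Fgfr4 and Klb, the receptor and co-receptor through which FGF15 acts on the hepatocyte, stood at -0.05 and 0.13 (adjusted p = 0.954 and 0.924). Both turned with 1 array, Fgfr4 to 0.04 without HGI 1 and Klb to -0.06 without LGI 4, and Klb stood at 0.21 without HGI 1. Mafg, a repressor of bile acid synthesis genes that FXR induces, stood at -0.45 (adjusted p = 0.549, and -0.29 without HGI 1), and Nr1i2 (PXR), a xenobiotic receptor that bile acids also activate, at -0.39 (adjusted p = 0.627). In the last group, of transcriptional regulators, 0 of 8 measured genes had an unadjusted p under 0.05. Nr5a2 (LRH-1) stood at -0.26 (adjusted p = 0.762, and -0.13 without LGI 4) and Hnf4a at -0.11 (adjusted p = 0.819). Foxa2 stood at 0.18 (adjusted p = 0.903), with 0.41 without HGI 1 and 0.05 without HGI 3.

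**Figure D4:**
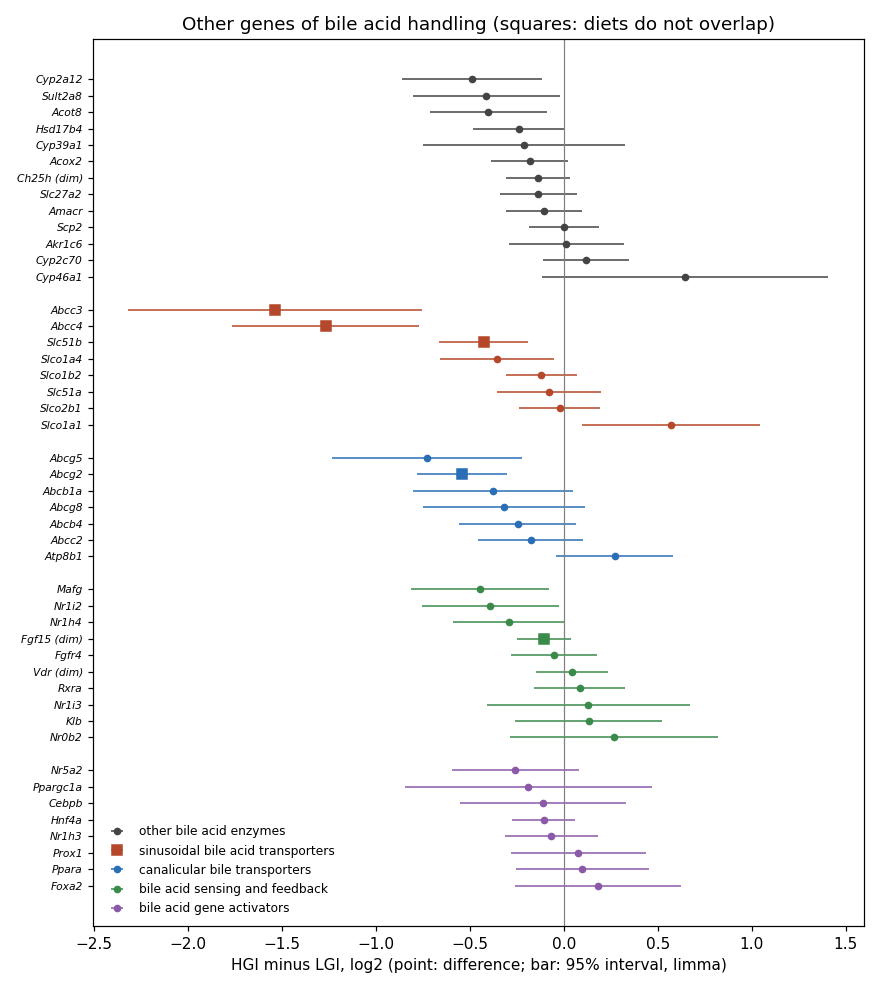
Difference between the diets (HGI minus LGI, log2) for 46 other genes of bile acid handling in 5 groups, each at its brightest probe set, with limma's 95% interval. Squares mark the 5 genes at which the diets do not overlap; Abcc3 at -1.53 and Abcc4 at -1.27 lie farthest from 0, and "dim" marks probe sets below the median of every array.

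Markers of other cell types were read on the same arrays. Sinusoidal endothelial markers (7 of 7 measured, with Pecam1 below the median of every array) had a mean level of 6.61 to 7.24 log2 in HGI and 6.42 to 6.76 in LGI. Erythroid markers (3 of 5 measured, with Hba-a1 below the median of every array) lay at 5.96 to 6.89 in HGI and 4.68 to 5.98 in LGI. Cholangiocyte markers (6 of 7 measured, with Krt7, Cftr and Slc10a2 below the median of every array) lay at 3.51 to 3.91 in HGI and 3.55 to 3.79 in LGI, and stellate cell markers (7 of 7, with Col1a1 below) at 7.02 to 7.64 in HGI and 7.05 to 7.60 in LGI. Of 5 ileal markers 4 (Fabp6, Vil1, Cdh17 and Slc10a2) were below the median of every array, and the list lay at 4.00 to 4.33 in HGI and 3.83 to 4.07 in LGI. No marker of any of the 7 lists passed the threshold, and their part in the bile acid values was not tested.

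Genes whose levels followed those of Cyp7a1 and Abcb11 most closely were named by Pearson's r over the 10 arrays, among single-symbol probe sets with a mean of at least 6 log2. For Cyp7a1 they were Mtfp1 (0.96), Ttc5 (0.95), Limd2 (0.95), Sucnr1 (0.94) and Pcbd1 (0.94), and without LGI 4 these values were 0.86, 0.84, 0.76, 0.74 and 0.73 over 9 arrays. For Abcb11 they were Stard10 (0.96), Hebp1 (0.96), Gstm1 (0.94), Slc3a2 (0.94) and Psmb7 (0.93), and without LGI 4 they were 0.96, 0.96, 0.94, 0.94 and 0.94. HGI 1, the lowest mouse at Abcb11, was not left out, and the diet means were not removed. These values of r therefore do not show how far they rest on that mouse or on the diet difference. They are the highest of many values and share the arrays, so they are given as a description. The Limd2 and Gstm1 probe sets are of the _x_at kind, which can also bind similar transcripts. None of the 10 passed the diet comparison (adjusted p from 0.253 to 0.985).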

How the data were processed

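RNA of 10 livers was measured on Affymetrix arrays, 1 array per mouse. The authors' deposited values are log2 expression per probe set; RMA and R 2.6.1 are named per the submitters' processing notes, and the genome build was not given in the sources used here. Array number limits the precision, and the labels name separate mice.

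From the 45101 probe sets 64 controls were left out and 45037 tested. Symbols came from the platform annotation (34945 probe sets with 1 symbol, 932 with several, 9160 with none); 34741 matched the RefSeq table by gene ID, which changed 0. HGI was compared with LGI in limma 3.58.1 (R 4.3.3, lmFit and eBayes, no covariates, no filter), with Benjamini-Hochberg adjustment over all probe sets and a threshold of 0.05. The fit was first tested on simulated data.

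The members and lists were chosen with earlier results of these data known. Named genes were all members, the 3 of smallest p in each wider list, any that passed, and 5 neighbours each of Cyp7a1 and Abcb11; the remaining genes named were picked after their values were seen. Relations used 100000 permutations, or all of them under 10 mice. Listed genes with no single-symbol probe set were not analysed here. The alternatives were a filter on low values, other scalings, a variance trend, array weights, a replicate block, an unmoderated test and leaving out arrays. The motifs were searched after the expression values were known.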

Additional observations from a re-analysis of the deposited data

Results flagged for a closer look

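The gap from the outermost mouse of a diet to its nearest neighbour was set against the whole range. This was done for the bile acid probe sets, the 3 genes of smallest p in each wider list, and Cyp46a1 and Slco1a1. There 6 values had a gap to the other 4 mice of more than 0.710 of the range, and all 6 were low values of LGI 4. Other wider genes were not put to this test. For Abcb4, HGI 1 stood at 9.45, with the other HGI mice at 10.13 to 10.30. Chance gives such a gap in about 1 in 20 groups, and among 34 tests at the 17 bile acid probe sets there were 2. They were Cyp7a1 at its brighter probe set (6.83 log2, where LGI 1, 2, 3 and 5 ran from 10.29 to 11.53) and Slc10a1 at its brighter probe set (11.84, against 12.47 to 12.56). Among the named enzymes and transporters, Cyp2a12 stood at 9.873 and Sult2a8 at 10.42. Cyp46a1, a cholesterol hydroxylase, stood at 8.185 (against 10.29 to 10.49) and Slco1a1, a sinusoidal organic anion importer, at 8.733 (against 9.86 to 10.14); these last were looked at because their values had been seen. Over all 11472 probe sets with a mean of at least 6 log2, LGI 4 was the far low value at 4.04% and the far high value at 3.91%, and HGI 1 was the far low value at 5.31%, while the other 8 arrays were each far on either side at under 0.61%.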

How the results depend on the processing

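The count of bile acid probe sets past the threshold was 0 under all 18 alternatives, with a smallest adjusted p of 0.129 (without HGI 2), and their median difference moved by less than the spread between mice (-0.19 to 0.04). The differences at Cyp8b1, Cyp7b1, Hsd3b7, Baat, Slc27a5 and Abcb11 kept their sign throughout. With single arrays left out, Cyp7a1 ran from -0.46 to 0.71, Cyp27a1 from -0.046 to 0.17, Akr1d1 from -0.14 to 0.17 and Slc10a1 from -0.10 to 0.090. Without HGI 1 and LGI 4 together Cyp7a1 stood at -0.24 and Slc10a1 at -0.049, with array weights Akr1d1 at -0.0093 and Slc10a1 at -0.0058, and as the mean of its probe sets Akr1d1 at -0.037. The 46 wider genes gave 0 to 1 past the threshold with single arrays left out (Abcc4 without HGI 3, Cyp2a12 without LGI 4) and 1 without HGI 1 and LGI 4 together (Cyp2a12). The within-diet correlation of Cyp7a1 with Cyp8b1 was 0.46 without LGI 4, an alternative added after seeing the data, and 0.13 without HGI 1 and LGI 4, which were also the 2 mice farthest on Cyp7a1. The count over all probe sets, 29, was 63 with quantile normalization repeated, 64 with array weights, 58 without HGI 1 and LGI 4, 17 with median centring (13 higher and 4 lower, against 17 higher and 12 lower), 1 with the unmoderated test, and 5 to 49 with single arrays left out; the cause was not tested. The replicate numbers gave no sign of pairing the mice (correlations of same-numbered deviations from -0.13 to 0.04), though so few values cannot exclude it. A fit with the replicate number as a block gave 33 probe sets and 0 bile acid probe sets. Abcc4 and Slc51b had group means under 6 log2, which limits how well the sizes of their differences are known.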
